A study of Bos taurus and other sequences with 9 samples.

Results

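The RNAs described here are the small nuclear RNAs (snRNAs) of the minor spliceosome, U11, U12, U4atac and U6atac, in cell culture media. Members were all loci typed as snRNA whose name starts with RNU11, U11, RNU12, U12, RNU4ATAC, U4ATAC, RNU6ATAC or U6ATAC, which gave 10 of the 1361 loci of small non-coding (nc)RNA other than miRNA and 10 of 419 snRNA loci. The 9 samples were extracts of extracellular vesicles (EVs) from 5 media. FBS was DMEM/F12 with untreated fetal bovine serum from Sigma (FBS-1) or Gibco (FBS-2), 1 lot each. UC-dFBS (depleted of EVs by ultracentrifugation) and UF-dFBS (flow-through of a centrifugal filter) were prepared from the same 2 sera. SBI-dFBS was commercial exosome-depleted serum from System Biosciences in 2 lots, and StemPRO, with 1 sample, was a defined serum-free medium for mesenchymal stem cells. No cells were grown in the media. As the 2 samples of a medium are 2 sera or 2 lots, p-values of fits with the medium alone measure the spread between sera or lots. Where both medium and serum are in a fit, p-values measure only the spread left after both. No sample was prepared again from the same serum by the same method.

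In eukaryotic cells, the minor spliceosome removes a rare class of introns that carry their own splice site sequences. U11 pairs with the donor splice site and U12 with the branch point, the tasks of U1 and U2 in the major spliceosome, and both travel together in 1 particle, the U11/U12 di-snRNP. U4atac and U6atac stand in for U4 and U6, whereas U5 serves both spliceosomes.

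Depth differed widely, with 6679 counts of miRNA and other small ncRNA in StemPRO and 6867736 in UF-dFBS-1, the deepest sample. Reads from bovine sera were placed on human GRCh37, so that coordinates are human and reads too different from the human sequence are missing. Values are spike-in normalized counts, in which the count of a locus is divided by a factor fitted to external spike-in RNAs of the same sample. This factor was 4.84 and 7.45 in FBS and 55.2 and 24.0 in UF-dFBS, so that ratios of UF-dFBS to FBS depend much on it. The study cautions that its spike-ins had the size of miRNAs, so that the scaling is probably less accurate for other small ncRNA, which was mostly longer. A locus with a count of 0 may still have up to 3 counts, which is 0.0278 spike-in normalized counts in StemPRO and 0.0543 to 0.794 in the samples with serum. Intervals and floors given here cover counting error only. The extracts may also hold RNA from outside EVs. In such bulk extracts, fewer particles that hold an RNA, less of it in each particle and a change in RNA outside particles cannot be told apart.

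U11 and U12 carried nearly all counts of the minor spliceosome snRNAs. RNU11-201, the U11 gene on the plus strand of chromosome 1 from 28975112 to 28975245 (134 nt), had 10329 counts over the 9 samples. RNU12-201, the U12 gene on the plus strand of chromosome 22 from 43011250 to 43011399 (150 nt), had 2837. These 2 loci held 99.8% of the 13190 counts of the 10 members.

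The other 8 members together had 24 counts and at most 4 in any sample, and none reached 10 counts in a sample. The U11 copy U11.2-201 on chromosome 8 (81661796 to 81661928) had 10 counts, 4 of them in StemPRO, 3 in FBS-1 and 1 each in SBI-dFBS-1, UF-dFBS-1 and UF-dFBS-2. RNU12-2P-201, a U12 pseudogene on chromosome X (46992070 to 46992225), had 5 counts. U11.3-201 on chromosome 8 had 1 count, in UC-dFBS-2. As reads of near-identical copies could be placed on either copy, these counts are uncertain.

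U4atac and U6atac were close to absent at this depth. RNU4ATAC-201, the U4atac gene on chromosome 2 (122288457 to 122288583), had 1 count in all, in FBS-2. RNU6ATAC-201, the U6atac gene on chromosome 9 (137029561 to 137029686), had 1 count each in FBS-1, FBS-2, UF-dFBS-1 and UF-dFBS-2. The U6atac copies RNU6ATAC3P-201, RNU6ATAC5P-201 and U6atac.15-201 had 1 count each. No level or comparison can be given for U4atac and U6atac from 1 and 7 counts.

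U11 was high in every medium with untreated, centrifuged or commercially depleted serum and low after ultrafiltration. With samples 1 and 2 in this order, RNU11-201 stood at 177 and 114 spike-in normalized counts in FBS, at 665 and 294 in SBI-dFBS, at 118 and 101 in UC-dFBS, at 0.38 and 0.58 in UF-dFBS, and at 0 in StemPRO. Both UF-dFBS samples lay below the 6 others with serum. This held for 37.2% of the 363 loci with at least 10 counts in at least 2 FBS-based samples. Both SBI-dFBS samples lay above both FBS samples, as for 22.3% of these loci, and UC-dFBS overlapped FBS. The UF-dFBS values rest on 21 and 14 counts, with exact Poisson 95% intervals of 0.235 to 0.581 and 0.319 to 0.978 spike-in normalized counts.

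U12 kept a narrower range among the same media. In the same order, RNU12-201 stood at 78.9 and 69.9 spike-in normalized counts in FBS, at 60.4 and 122 in SBI-dFBS, at 60.0 and 58.0 in UC-dFBS, at 1.67 and 1.58 in UF-dFBS, and at 0.0926 in StemPRO. UF-dFBS was below all other samples with serum, as for 37.2% of the 363 loci. UC-dFBS was below both FBS samples, as for 19.3%, and SBI-dFBS lay on both sides of FBS. Among the 6 samples with serum other than UF-dFBS, the highest value of RNU12-201 was 2.10 times the lowest (0.1 added to each value), the 6th smallest such ratio among 363 loci with at least 10 counts in at least 2 FBS-based samples. For RNU11-201 the ratio was 6.59 (rank 60), and the median of the 363 loci was 28.

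**Figure D1:**
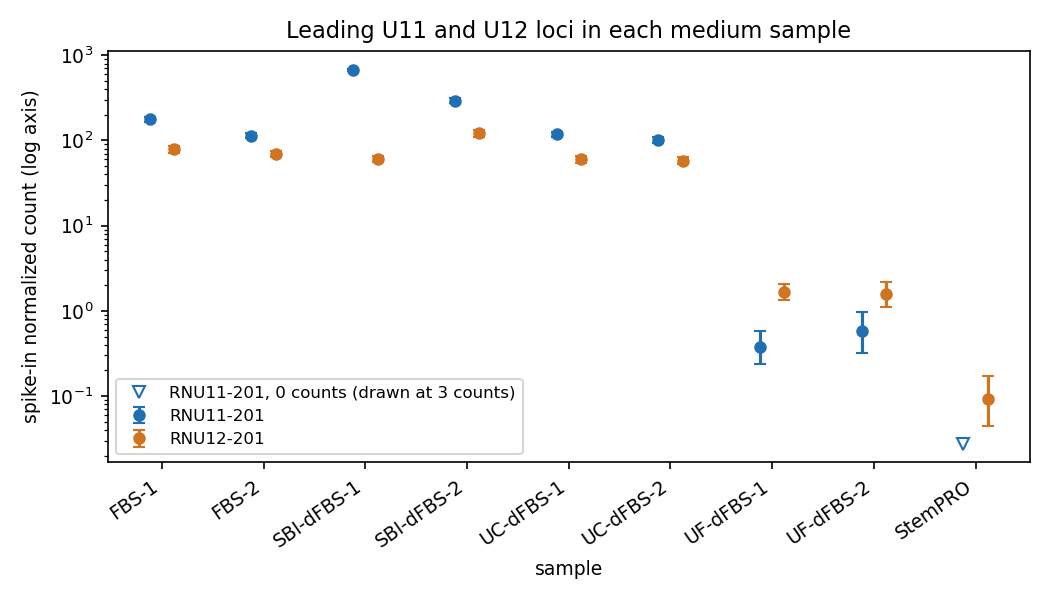
Spike-in normalized counts (y axis, log scale) of RNU11-201 and RNU12-201 in each of the 9 samples (x axis), with exact Poisson 95% intervals as bars and an open triangle at 3 counts for the 0 counts of RNU11-201 in StemPRO. Among samples with serum, UF-dFBS is lowest for both RNAs, and the order of the 2 RNAs is turned there, with RNU11-201 at 0.38 and 0.58 and RNU12-201 at 1.67 and 1.58.

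How far ultrafiltration removed the minor spliceosome snRNAs was read against the FBS of the same serum. For RNU11-201, UF-dFBS-1 held 0.214% of FBS-1 and UF-dFBS-2 held 0.510% of FBS-2, which is 466-fold and 196-fold lower. For RNU12-201 the remainders were 2.11% and 2.26%, 47.3-fold and 44.2-fold lower, so that both sera gave nearly the same loss of U12. The means were 0.482 ± 0.143 against 146 ± 44.6 for RNU11-201 and 1.62 ± 0.0592 against 74.4 ± 6.34 for RNU12-201 (SD, n = 2 for each medium).

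Across all loci, the fit without the serum as a term passed no locus in UF-dFBS against FBS (edgeR quasi-likelihood test, Benjamini-Hochberg adjustment, percent called 0 of 363 loci, 108 at an unadjusted p under 0.05). RNU11-201 had a log2 change of -8.22 ± 2.40 (SE) with an adjusted p of 0.0824 in edgeR, and RNU12-201 -5.51 ± 1.92 with 0.108. The 0.0824 was the smallest adjusted p of the fit, but the adjustment gave other loci the same value, so it does not rank RNU11-201 first. With the serum as a replicate block in the 6 samples that share both sera, 213 of 322 loci were lower (66.1% called) and none higher, and both members fell, with log2 changes of -8.21 ± 1.81 for RNU11-201 (adjusted p = 6.7e-05, edgeR) and -5.51 ± 1.40 for RNU12-201 (adjusted p = 0.00043, edgeR). The median of all loci in that fit was -3.66, with 11 loci below RNU11-201 and 48 below RNU12-201. With 6 samples, the fit takes its estimate of the spread in part from other loci. The p-values of both members thus do not rest on the samples of each locus alone. Both calls are to be read against this 66.1%. They rest on the untreated sera: without FBS-1 neither member passed (adjusted p = 0.116 and 0.171, edgeR, 77 of 284 loci called), and without FBS-2 RNU12-201 did not (adjusted p = 0.0559, edgeR, 130 of 302 loci called), at log2 changes of -7.81 and -5.45 and of -8.61 and -5.57. Both passed without UC-dFBS-1 (181 of 314 loci called) and without UC-dFBS-2 (181 of 322). Without UF-dFBS-1 the log2 changes were -7.69 and -5.49, and without UF-dFBS-2 they were -8.74 and -5.53. DESeq2 with the spike-in factors and without the block called 152 of 363 loci (41.9%), both members among them, and edgeR without a filter on low counts called 3.7% of 1271 loci and no member.

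UF-dFBS was also set against the 6 other samples with serum. Both UF-dFBS samples were below all 6 for RNU11-201 and for RNU12-201, as for 37.2% of the 363 loci (50.1% against FBS alone). An exact two-sided permutation test on log2(value + 0.1) gave p = 0.0714 for each RNA, the smallest p that 2 against 6 samples allow. The difference of the means was -8.38 for RNU11-201 and -5.39 for RNU12-201 on this log2 scale. As a share of all small ncRNA counts, the differences were -4.38 (p = 0.0714) and -1.22 (p = 0.429, exact permutation test), and the groups overlapped for RNU12-201. In edgeR the contrast of UF-dFBS with the mean of the 3 other media gave -8.66 ± 2.39 for RNU11-201, the lowest value of all 363 loci (adjusted p = 0.101), and -5.50 ± 1.84 for RNU12-201 (adjusted p = 0.125). No locus passed (percent called 0, 113 at an unadjusted p under 0.05), whereas DESeq2 with spike-in factors called 221 loci (60.9%), both members included. DESeq2 with its own size factors called 13.2% of loci in either direction and 6.06% lower, RNU11-201 among the latter, and edgeR without a filter 0.551% of 1271 loci and no member. The lowest rank of RNU11-201 held only in edgeR with the spike-in factors. Below it lay 4 loci in DESeq2 with spike-in factors, 9 in DESeq2 with its own factors and 17 in edgeR with TMM scaling.

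**Figure D2:**
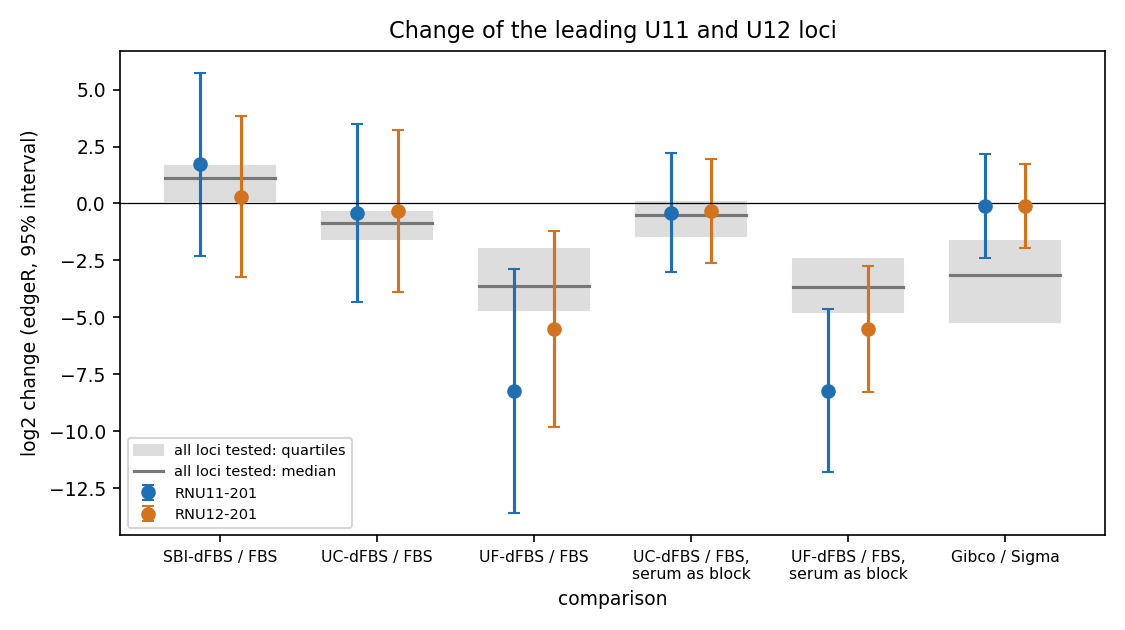
Log2 change (y axis) of RNU11-201 and RNU12-201 in each comparison (x axis) with the 95% interval of the edgeR fit, over a grey box for the quartiles and a grey line for the median of all loci tested. In UF-dFBS both RNAs lie below the median of -3.63, and between the suppliers both lie near 0 while the median is -3.13.

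Less of U11 than of U12 remained in UF-dFBS in both sera, and the proportion of the 2 RNAs differed from that of the other media. Of the counts on both loci, RNU11-201 held 69.2% in FBS-1 (Wilson 95% interval 66.6 to 71.7%), 62.1% in FBS-2, 70.7% in SBI-dFBS-2, 66.3% in UC-dFBS-1 and 63.5% in UC-dFBS-2. SBI-dFBS-1 stood above these with 91.7% (91.0 to 92.3%). UF-dFBS-1 had 18.6% (12.5 to 26.7%, 113 counts) and UF-dFBS-2 26.9% (16.8 to 40.3%, 52 counts), and these intervals do not reach those of any other sample with serum. Divided by the length of the locus, the count of RNU11-201 was between 1.83 and 12.3 times that of RNU12-201 in the 6 other samples with serum. In UF-dFBS it was 0.256 and 0.412 times. This ratio within a sample does not depend on the spike-in factor. The study describes small ncRNA other than miRNA as mostly far shorter than these loci, so that counts per length may not give levels of whole RNAs. The difference in this proportion between media was not tested.

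**Figure D3:**
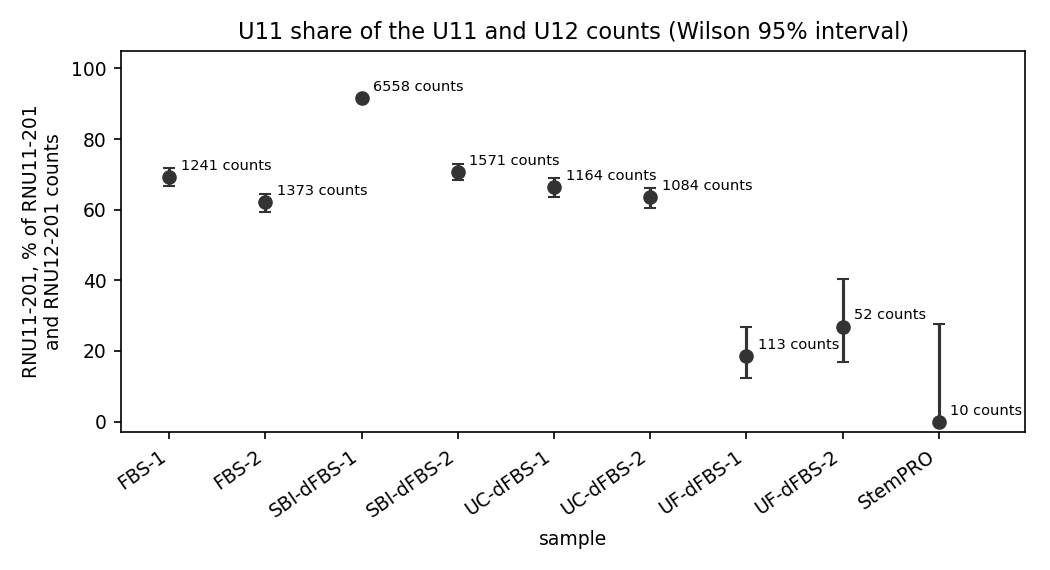
Share of RNU11-201 (y axis, percent) among the counts of RNU11-201 and RNU12-201 in each of the 9 samples (x axis), with Wilson 95% intervals and the number of counts beside each point. The 6 other samples with serum lie between 62.1% and 91.7%, UF-dFBS at 18.6% and 26.9%, and StemPRO at 0% of 10 counts at these 2 loci.

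Ultracentrifugation left most of both RNAs. Within its serum, UC-dFBS-1 held 66.6% and UC-dFBS-2 88.2% of the RNU11-201 of FBS, and 76.0% and 83.1% of the RNU12-201. All 4 ratios are below 100%, but for RNU11-201 UC-dFBS-1 was above FBS-2. For RNU12-201 both samples were below both FBS samples, as for 19.3% of the 363 loci. In edgeR the log2 change was -0.41 ± 1.76 for RNU11-201 and -0.33 ± 1.59 for RNU12-201 (adjusted p = 0.989 for each), where no locus passed (percent called 0, 12 at an unadjusted p under 0.05, and 0 calls in DESeq2). With the serum as a block 8 of 322 loci were called (2.48%), neither member among them. The 95% interval of the blocked change ran from -3.01 to 2.2 for RNU11-201 and from -2.62 to 1.95 for RNU12-201, so that changes of several fold in either direction lie within them.

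In the commercial serum, U11 had higher values than in FBS, most of all in 1 of the 2 lots, but the difference did not pass the test and was small under other scalings. RNU11-201 of SBI-dFBS was 3.29 ± 2.06 times the mean of FBS (SD propagated from both media), and both samples were above both FBS samples, as for 22.3% of the 363 loci. RNU12-201 was 1.22 ± 0.593 times. Between the lots, RNU11-201 of SBI-dFBS-1 was 2.26 times that of SBI-dFBS-2, whereas RNU12-201 was 0.496 times. U1, summed over its 77 loci, was 8.33 times as high in SBI-dFBS-1 as in SBI-dFBS-2, and U2, over 48 loci, 0.948 times. Neither member passed in edgeR, with log2 changes of 1.72 ± 1.80 and 0.29 ± 1.59 against FBS (adjusted p = 0.970 and 0.980, percent called 0, 4 at an unadjusted p under 0.05, and 0 calls in DESeq2 with spike-in factors). The median of all loci in this fit was 1.1. For RNU11-201 TMM gave 0.19, with a median of all loci of -0.38, and DESeq2 with its own factors 0.30, with a median of -0.11. RNU12-201 was lower than in FBS under both, by log2 changes of -2.05 and -1.93.

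Between the sera, U11 and U12 differed little where most loci differed by much. FBS-1 had 1.55 times the RNU11-201 and 1.13 times the RNU12-201 of FBS-2, while the median of the 363 loci was 7.0 times (0.1 added to each value). Over FBS, UC-dFBS and UF-dFBS, with the medium as a term, 174 of 280 loci were lower with Gibco than with Sigma serum (62.1% called, edgeR, adjusted p under 0.05) and none was higher. The suppliers are those of the labels, and since the study lists 1 catalogue number for both sera with different lots, suppliers and lots cannot be told apart. This count rests on few samples, being 10 of 192 loci without FBS-1, 74 of 257 without FBS-2 and 81 of 208 without UC-dFBS-1. RNU11-201 had a log2 difference of -0.11 (95% interval -2.39 to 2.17, adjusted p = 0.945, edgeR) and RNU12-201 of -0.10 (-1.94 to 1.74, adjusted p = 0.939, edgeR), where the median of all loci was -3.13. Within FBS, UC-dFBS and UF-dFBS, the Sigma sample had 1.13, 1.03 and 1.05 times the RNU12-201 of the Gibco sample. The Sigma sample was thus higher in each of the 3 media, but the exact Poisson 95% intervals overlapped in each pair. For RNU11-201 the Sigma sample had 1.55, 1.17 and 0.652 times the value of the Gibco sample. Exact two-sided permutation tests of 3 against 3 samples (p = 0.8 and p = 0.7, with 0.1 as the smallest possible p) ignore the medium, whose differences are far larger than these, and so say little about the sera. These values are relative to the spike-ins. Scaled by TMM instead, which moved the median of all loci to 0.58, both members were higher with Gibco serum, by 3.62 and 3.74 on the log2 scale (adjusted p = 0.00459 and 0.00169, edgeR), and of the 84 loci called (30% of 280) 65 were higher (23.2%) and 19 lower. DESeq2 with its own size factors called both members higher as well, with 64.6% of loci called and 30% higher. In edgeR without the medium as a term no locus passed (percent called 0, 100 at an unadjusted p under 0.05).

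The other spliceosomal snRNAs were followed in the same way. In UF-dFBS against the FBS of its serum, U1 (77 loci summed) remained at 1.14% and 4.60%, and U2 (48 loci) at 2.56% and 1.94%. U11 (3 loci) was at 0.224% and 0.546% and U12 (2 loci) at 2.11% and 2.31%. U4 (50 loci) was at 92.9% and 111%. Among these sums, the lowest remainder in each serum was thus that of U11, and the remainders of U12 and U2 lay close together. This order is of sums over unlike numbers of loci and does not hold for single loci, as given below. U5, shared by both spliceosomes, and U6 were at 21.6% and 18.6% and at 26.1% and 27.5%, but from no more than 44 counts in either FBS sample. U7, which acts in histone mRNA processing and not in splicing, had 6 and 23 counts in FBS and 2 and 1 in UF-dFBS.

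In the fit with the serum as a block, all 19 tested U1 loci and all 10 tested U2 loci were lower in UF-dFBS, as were both members, while 0 of 10 tested U4 loci passed in either direction (log2 changes -0.28 to 0.19). No U5, U6 or U7 locus had enough counts. Between the suppliers, 10 of 10 tested U4 loci were lower with Gibco serum (median log2 difference -5.34) and 0 of 10 U1 and 0 of 10 U2 loci were called (medians 0.58 and -0.08). Many loci of a family share sequence, so that they do not count as independent RNAs.

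**Figure D4:**
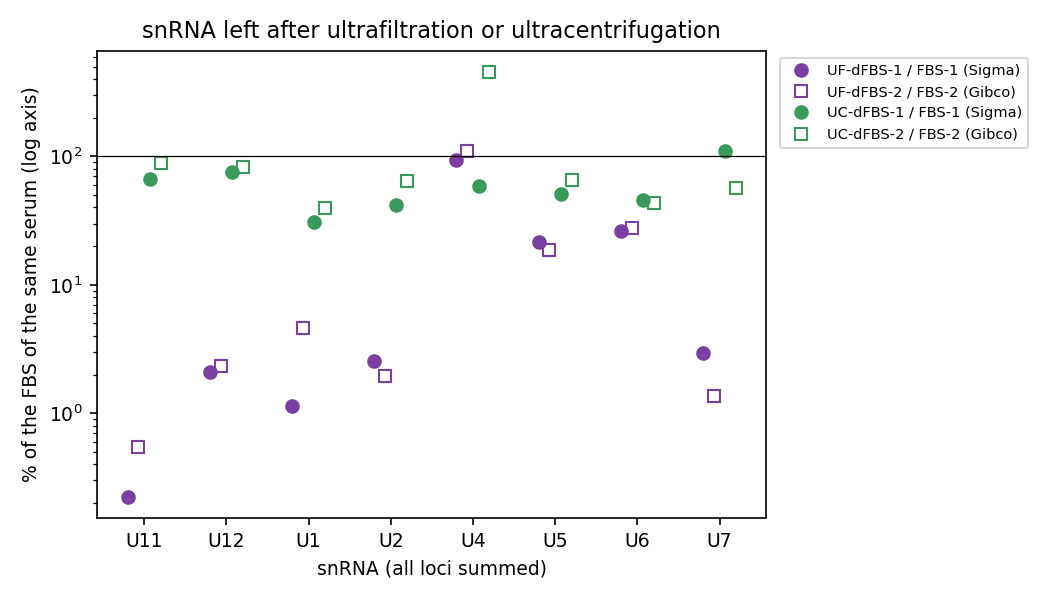
Sum of all loci of each snRNA (x axis) left after ultrafiltration or ultracentrifugation, in percent of the FBS of the same serum (y axis, log scale), with filled circles for Sigma and open squares for Gibco serum. After ultrafiltration U11 is lowest in both sera with 0.224% and 0.546%, U12 and U2 lie between 1.94% and 2.56%, and U4 stays near 100%.

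The share of the minor spliceosome within all snRNA counts differed widely between samples, also within a medium. The 10 members held 23.8% of the snRNA counts in FBS-1 (Wilson 95% interval 22.7 to 25%), 45.2% in FBS-2, 72.2% in SBI-dFBS-1, 19.3% in SBI-dFBS-2, 29.1% in UC-dFBS-1 and 51.3% in UC-dFBS-2. UF-dFBS had 0.394% in the sample from Sigma serum, where 28604 of 29180 snRNA counts were U4, and 13.3% (10.4 to 16.9%) in that from Gibco serum. Set against the matching major snRNA instead, the counts of U11 were between 1.56 and 21.4 times those of U1 in the 6 other samples with serum and 0.44 and 0.185 times in UF-dFBS. Those of U12 were between 0.455 and 0.947 times those of U2, and 0.374 and 0.619 times in UF-dFBS.

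Among all other loci, those whose levels over the 8 FBS-based samples were most like RNU11-201 were Y RNA loci, Y_RNA.273-201 (Pearson's r = 0.994 on log2(value + 0.1)), Y_RNA.341-201 (0.977) and Y_RNA.321-201 (0.977). For RNU12-201 they were the U2 loci U2.6-201 (0.992), U2.22-201 (0.991) and U2.23-201 (0.991). RNU11-201 and RNU12-201 correlated with r = 0.972, and the median over the other 361 loci was 0.655 and 0.653. These are descriptions over 8 samples that share sera and libraries, and the low UF-dFBS samples weigh heavily in them. Y_RNA.273-201 had 37.8 and 25.2 spike-in normalized counts in FBS and 2.35 and 2.91 in UF-dFBS, a smaller decrease than that of RNU11-201.

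StemPRO had a few counts of U12 and none at the main U11 locus, beside 4 at the copy U11.2-201. RNU12-201 had 10 counts, or 0.0926 spike-in normalized counts (exact Poisson 95% interval 0.0444 to 0.170), which is 0.124% of the mean of FBS. RNU11-201 had 0 counts, which allows up to 0.0278 spike-in normalized counts, so that this locus was at least 5251-fold lower than the mean of FBS. With the 4 counts at U11.2-201, which may be reads of either copy, U11 over its 3 loci was at 0.0253% of FBS, 3947-fold lower. The share of RNU11-201 among both loci was 0 of 10 counts, with an upper Wilson bound of 27.8%, and that of U11 over all loci 4 of 14, or 28.6% (11.7 to 54.6%). All members together had 15 counts, 3.12% of the 481 snRNA counts (1.90 to 5.08%). As StemPRO has no replicate and few counts, no difference was tested.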

How the data were processed

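Small ncRNA of EV extracts was sequenced with the QIAseq miRNA kit and spike-ins. Per the labels and methods, the authors trimmed reads with cutadapt 1.11, collapsed those with a full-length unique molecular index to unique combinations of insert and index, and used Bowtie2 2.2.2 with miRBase first and human GRCh37 second. The deposited counts are these collapsed reads per locus, not normalized. How reads matching several loci were placed is not given in the sources used here. In the second kind of deposited table, the signal is the count over a per-sample slope that the authors fitted to the spike-ins, and the ratio of both was constant within each sample (largest deviation 2.3e-06 percent).

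From these, edgeR 4.0.16 (R 4.3.3) quasi-likelihood tests were computed over all small ncRNA loci other than miRNA, with library sizes from the spike-in factors, at least 10 counts in at least 2 samples (3 for the supplier fit), and Benjamini-Hochberg adjusted p under 0.05. SE was taken from the log2 change and its F statistic. DESeq2 1.42.0 and other settings were alternatives. Levels, shares and exact permutation tests used python 3.11.15, pandas 2.3.3 and scipy 1.17.1. No p was computed for sums over members. The members and lists were chosen with earlier results of these data known. Named were up to 3 leading loci of U11 and of U12 by summed count, the leading U4atac and U6atac loci, any member called or highest among members in a sample, and the 3 other loci most like RNU11-201 and RNU12-201. The remaining members were named since they are few.

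Samples of the same number in FBS, UC-dFBS and UF-dFBS share a supplier in the labels and a serum lot in the methods. As a check of this pairing, the difference between samples 1 and 2 correlated across 363 loci with r = 0.759, 0.604 and 0.574 between these media. With SBI-dFBS, which shares no serum with them, r was -0.564 (FBS), -0.516 (UC-dFBS) and -0.416 (UF-dFBS). The order of its lots is unrelated to that of the sera, so the sign has no meaning. As correlations of similar size arose without a shared serum, the check cannot show the pairing, which rests on the labels and methods. On that ground the serum was used as a replicate block where it changed a call.

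In simulated data with the spread of the real loci and log2 changes of 2 to 3, the fit of UF-dFBS against FBS found 0 of 85 changed loci (0 of 86 at 6 to 8), the blocked fit 24 of 77 (71 of 72 at 6 to 8), and the supplier fit 24 of 67. With a low spread the fit without block found 83 of 87.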

Additional observations from a re-analysis of the deposited data

How the results depend on the processing

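The number called of RNU11-201 and RNU12-201 was 0 in each of the 5 comparisons. It became 2 in UF-dFBS against FBS with the serum block (66.1% of all loci called) and DESeq2 on spike-in factors (41.9%). Against the 3 other media it became 2 with DESeq2 on spike-in factors (60.9%) and 1 on its own (13.2%). For Gibco against Sigma serum it became 2 with TMM (30%) and DESeq2 on its own factors (64.6%). The block changed no other member call. Leaving out each sample in turn from the fits without a block gave 0 to 0 members called, which shows no stability, since those medium fits called no locus. An alternative chosen after seeing the data left out each sample from the blocked fit. In UF-dFBS against FBS it called 0 members without FBS-1, 1 without FBS-2 (RNU11-201) and 2 without each of the others, and in UC-dFBS 0 throughout, where RNU11-201 was at 0.035 without FBS-1.

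RNU11-201 and RNU12-201 stayed lower in UF-dFBS than in FBS in every setting run. Without one sample, the permutation difference from the other media ranged from -8.63 to -8.01 for U11 and from -5.45 to -5.24 for U12. On shares of all counts these differences were -4.38 and -1.22. TMM, which moved the median of all loci from -3.63 to -0.57, gave -3.83 and -1.49. Without a filter on low counts 47 of 1271 loci were called in UF-dFBS against FBS (7 against the other media), 0 of them members, instead of 0 of 363.

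Small changes turned sign. For RNU12-201 in SBI-dFBS the log2 change was -2.05 with TMM, -1.93 with DESeq2 on its own factors and -0.30 without SBI-dFBS-2 (0.71 without SBI-dFBS-1). In UC-dFBS against FBS TMM gave 0.20 for RNU11-201 and 0.15 for RNU12-201. For Gibco against Sigma serum, RNU11-201 gave 3.62 with TMM, 3.02 with DESeq2 on its own factors, 0.18 without FBS-1 and 0.17 without FBS-2, and RNU12-201 gave 3.74 and 3.12 with TMM and DESeq2. The permutation differences became 3.42 and 3.41 when counts were scaled to the total of all small ncRNA, and ranged from -2.86 to 2.31 and from -1.86 to 1.65 when 1 sample was left out, which leaves the media unbalanced between the suppliers, so that these signs say nothing about the sera. With a medium term the ranges were -0.43 to 0.18 and -0.13 to -0.06. Without a medium term 0 instead of 174 loci were called between the suppliers.

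The sum of all members relative to FBS was 2.58 in SBI-dFBS, 0.763 in UC-dFBS, 0.00989 in UF-dFBS and 0.000628 in StemPRO. As a share of all counts it was 0.676 in SBI-dFBS, 0.264 in UF-dFBS and 1.73 in StemPRO, and on raw counts 0.0648 in UF-dFBS and 0.0114 in StemPRO. With the leading loci alone StemPRO was at 0.000420. Without one sample the ratios ranged from 1.88 to 3.28, from 0.655 to 0.912, from 0.00850 to 0.0118 and from 0.000540 to 0.000752. The cause of these shifts was not tested. Counts of 0 to 92 in UF-dFBS and StemPRO limit the precision there.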
